A study of Mus musculus with 12 samples.

Results

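The 7 transcripts described here encode proteins that set how long cytokine mRNAs last: Zfp36, Zfp36l1, Zfp36l2, Zc3h12a, Zc3h12c, Rc3h1 and Elavl1. They were chosen by gene symbol from the 23329 genes of the count tables. The rule used no measured value, but earlier results of these data were known when they were chosen. All 7 were found, and all 7 were among the 13038 genes that passed the filter on low counts (more than 0.5 CPM, the read count scaled to library size, in every library of at least 1 group).

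The stability of an inflammatory mRNA is set largely by elements in its 3′ untranslated region (UTR). Tristetraprolin (Zfp36) and its relatives Zfp36l1 and Zfp36l2 bind AU-rich elements through paired CCCH zinc fingers and recruit the CCR4-NOT deadenylase, after which the message is decapped and degraded. Regnase-1 (Zc3h12a) and Regnase-3 (Zc3h12c) are endoribonucleases that cut stem-loops in the UTRs of messages such as Il6, and Roquin-1 (Rc3h1) binds stem-loops of the same kind and recruits deadenylases. HuR (Elavl1) binds AU-rich elements as well, and is best known for keeping messages stable. Several of these genes are themselves induced by Toll-like receptor signaling, and in macrophages they are part of the feedback that ends a cytokine burst.

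Poly(A) RNA was sequenced from primary stromal cells (labelled intestinal myofibroblast) of the small intestine of C57BL6/J mice, taken either at embryonic day E14.5 or from adults whose age the labels do not give. The cells had been cultured to passage 2 or 3 and were exposed for 6 h to lipopolysaccharide (LPS) of Escherichia coli, at a stated 10 µg/µl, or to PBS. Each combination of stage and treatment had 3 libraries. No transgene or deletion was present. The cultures came from separate adult mice or from pooled embryos, had not been sorted, and could hold leukocytes next to the stroma. Between 18850224 and 32672370 reads per library were assigned to genes, and a member had between 144 and 7820 reads in a library, so counting error was small beside the spread between cultures.

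Stromal markers (7 genes, Col1a1 and Pdgfra among them) summed to 10237 to 21901 CPM and were lowest in replicate 2 of each group. Smooth muscle and myofibroblast markers (5 genes, such as Acta2) summed to 12822 to 27246 CPM, and Epcam, which defines epithelium, stayed at or below 0.488 CPM. Of 17 macrophage markers all had more than 3 reads in every embryonic library. In every adult LPS library 14 had so, and 14 in every adult PBS library, though not the same 14. Their sum was 277, 519 and 3222 CPM in embryonic PBS replicates 1 to 3, and 218, 1170 and 2396 CPM in the embryonic LPS libraries. In the adult libraries it was 214, 65.6 and 70.5 CPM with PBS and 225, 54.8 and 66.3 CPM with LPS. Endothelial markers (6 genes, Pecam1 among them) summed to 1791 and 1720 CPM in adult replicate 2 (PBS and LPS), to 378 and 352 CPM in adult replicate 3, and to at most 34.7 CPM elsewhere. Mesothelial markers summed to 108 to 1041 CPM, those of enteric glia and neurons to 13.2 to 141 CPM, epithelial markers to 7.47 to 59.5 CPM and lymphocyte markers to at most 1.39 CPM. Krt20 alone made up most of the epithelial sum in every library, and every other epithelial marker stayed at or below 1.11 CPM. Tubb3 likewise made up most of the enteric sum, while Sox10 stayed at or below 0.123 CPM in adult libraries. The epithelial and enteric sums are therefore not read as content of those cells. Mertk gave 44.4 of the 65.6 CPM of macrophage markers in adult PBS replicate 2, and 37.0 of the 54.8 CPM in its LPS partner. In such bulk cultures, fewer cells of a type and less RNA per cell cannot be told apart.

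The UTRs of the members carry the same class of element that the Zfp36 proteins and HuR read. The nonamer TTATTTATT, searched on the transcript strand of 1 annotated 3′ UTR per gene with overlaps counted, was present in 5 of the 7 members, against 8.02% of the 11515 tested genes with such a UTR and 9 of 20 inflammatory transcripts taken as known targets. The median UTR was 1838 bases long in the members, 1130 over all genes and 666 in the targets, and longer UTRs offer more room for a match. The 30-base windows below show that stretch in the 5 members that hold it and in Tnf, the classical target of tristetraprolin. They are printed 5′ to 3′ in the sense of the transcript, with T for U and the nonamer in capitals (GRCm38, GENCODE M21 transcripts). The windows are chr7:28376950-28376979 (minus strand) for Zfp36, chr12:80108166-80108195 (minus) for Zfp36l1, chr17:84184913-84184942 (minus) for Zfp36l2, chr1:160970043-160970072 (plus) for Rc3h1, chr8:4285775-4285804 (minus) for Elavl1 and chr17:35199677-35199706 (minus) for Tnf.
Zfp36: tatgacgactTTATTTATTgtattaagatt
Zfp36l1: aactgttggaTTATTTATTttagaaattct
Zfp36l2: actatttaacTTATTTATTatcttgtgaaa
Rc3h1: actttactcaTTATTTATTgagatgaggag
Elavl1: atTTATTTATTTATTTATTtTTATTTATTt
Tnf: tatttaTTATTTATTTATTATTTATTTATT
The nonamer occurred once in the UTRs of Zfp36, Zfp36l1, Zfp36l2 and Rc3h1, 8 times in that of Elavl1 and 5 times in that of Tnf. The regnase transcripts Zc3h12a and Zc3h12c had none, and their UTRs of 859 and 3424 bases held 3 and 12 copies of the shorter ATTTA. The heptamer TATTTAT was found in 6 of the 7 members and in 17 of the 20 targets, against 30.4% of all genes.

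LPS raised part of this set and left no member called lower. Zc3h12a rose strongly at both stages. Zfp36, Zfp36l1 and Zc3h12c rose by 2.06- to 3.11-fold in embryonic stroma in the fit that pairs libraries by replicate number. In that fit Zfp36l1 also rose in adult stroma (1.70-fold). Of these 3, Zc3h12c alone passed without the pairing as well, in embryonic stroma. Zfp36l2, Rc3h1 and Elavl1 did not pass the test. A gene passed at an adjusted p under 0.05 (quasi-likelihood test of edgeR, with p-values adjusted by Benjamini-Hochberg over all 13038 genes). In embryonic stroma 2 of 7 members rose and 0 fell without the pairing (4 at an unadjusted p under 0.05), where 2.67% of all tested genes rose and 0.0767% fell. With the pairing 4 rose and 0 fell, where 9.43% of genes rose and 3.12% fell. In adult stroma 1 of 7 rose and 0 fell without the pairing, against 0.598% and 0.00767% of all genes, and 2 rose and 0 fell with it, against 4.69% and 1.51%. An LPS library and the PBS library that shared its number and stage deviated together from their group means (correlation over genes 0.610 to 0.850 in the 6 pairs), so both fits are given. Without a model, 4 of 7 members were higher in every LPS than in any PBS library in embryonic stroma, against 7.58% of all tested genes, and 4 of 7 in adult stroma, against 9.10%.

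**Figure D1:**
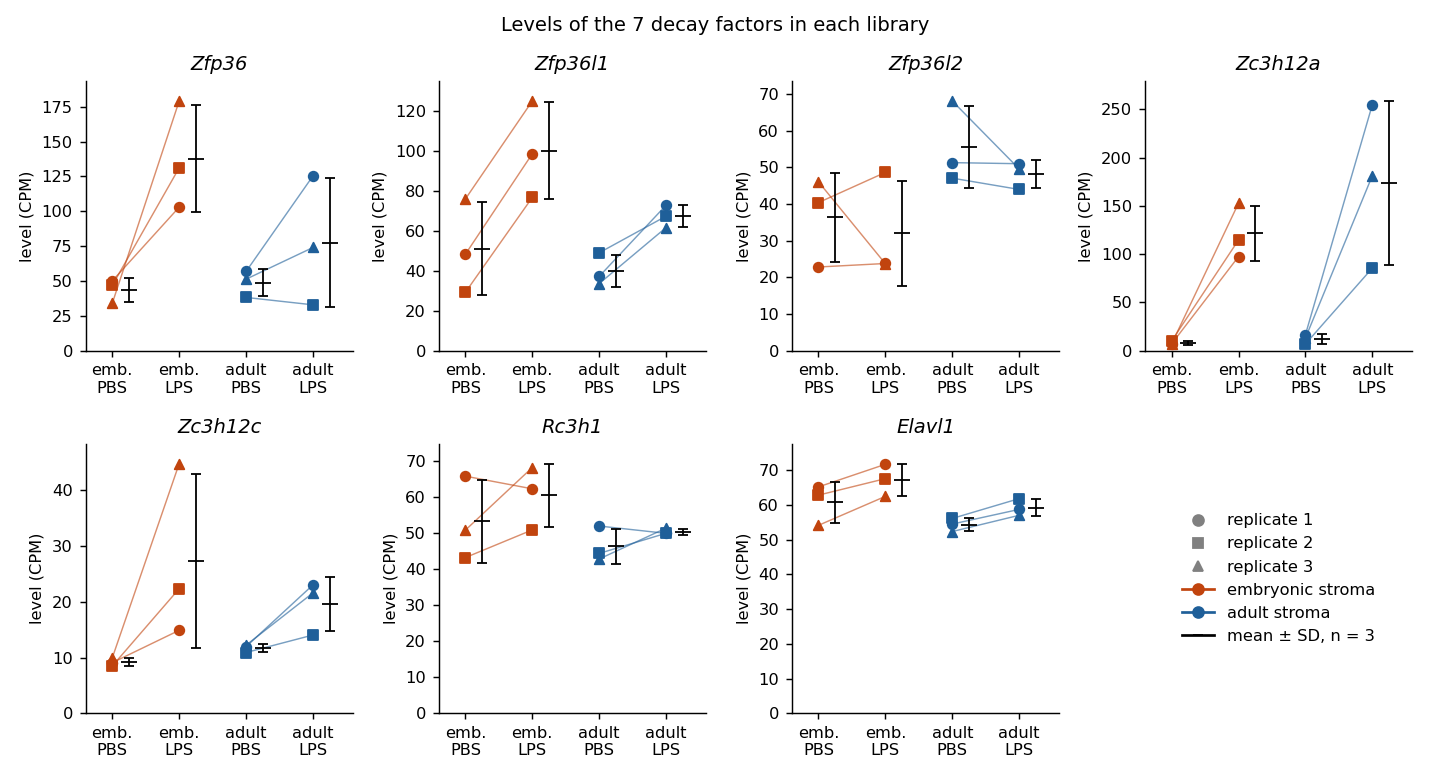
Level of each decay factor (CPM, vertical axis from 0) in the 12 libraries, by group, with a line joining the PBS and LPS libraries of the same stage and number and black bars for mean ± SD (n = 3). Zc3h12a rose in all 6 pairs, from at most 16.6 CPM with PBS to at least 85.5 CPM with LPS, while Elavl1 stayed between 52.4 and 71.7 CPM.

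Zc3h12a, which encodes Regnase-1 (chromosome 4 of GRCm38.p6, 125118414 to 125127881), changed most of the 7. In embryonic stroma it was at 7.02, 10.1 and 6.97 CPM with PBS and at 97.4, 115 and 153 CPM with LPS. The adult values were 16.6, 6.94 and 13.1 CPM with PBS and 255, 85.5 and 181 CPM with LPS. At each stage every LPS library was far above every PBS library, and adult LPS replicate 2 was the lowest of the 6 LPS libraries. The log2 fold change was 3.91 (SE 0.17, adjusted p = 4.91e-06, paired) in embryonic and 3.80 (SE 0.17, adjusted p = 1.62e-05) in adult stroma, and 3.92 (SE 0.45, adjusted p = 0.00227) and 3.83 (SE 0.44, adjusted p = 0.00683) without pairing. The 3 embryonic pairs changed by 3.50 to 4.44 and the 3 adult pairs by 3.61 to 3.94. The adult call without pairing was lost when adult PBS replicate 3 was left out (3.88, adjusted p = 0.0647), and the paired call held without any 1 pair. The difference between stages in the change was 0.12 (SE 0.23, adjusted p = 0.947, paired), with a 95% interval from 0.751- to 1.56-fold.

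Zc3h12c, which encodes Regnase-3 (chromosome 9, 52109569 to 52168730, a span that also holds Mir6244), had the lowest mean level per kilobase of exon in every group, while by CPM the embryonic PBS mean of Zc3h12a was lower (8.03 against 9.16 CPM). Zc3h12c was at 9.07, 8.48 and 9.93 CPM with PBS and 14.9, 22.3 and 44.7 CPM with LPS in embryonic cultures, and at 11.9, 10.9 and 12.2 CPM with PBS and 23.0, 14.0 and 21.6 CPM with LPS in adult stroma. The PBS values lay close together at each stage and all LPS values were above them, with embryonic LPS replicate 3 the highest. In embryonic stroma the log2 fold change was 1.44 (SE 0.25, adjusted p = 0.00869) with pairing and 1.57 (SE 0.35, adjusted p = 0.0422) without. The call without pairing was lost in 9 of the 12 fits that left out a library, among them the one without embryonic LPS replicate 3 (0.98, adjusted p = 0.0901), whereas the paired call held without any pair (1.03 to 1.79). The adult change was 0.72 (SE 0.25, adjusted p = 0.168, paired), positive in 3 of 3 pairs. It passed only when embryonic replicate 3 was left out (0.71, adjusted p = 0.0251).

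Zfp36, the gene of tristetraprolin (chromosome 7, 28376784 to 28379228), was at 50.1, 46.8 and 34.0 CPM with PBS and at 103, 131 and 179 CPM with LPS in embryonic stroma. The adult cultures held 56.8, 38.2 and 51.3 CPM with PBS and 125, 32.9 and 74.0 CPM with LPS. The embryonic groups did not overlap, but in adult replicate 2 the LPS library was below its PBS partner and below every other library. The embryonic log2 fold change was 1.64 (SE 0.30, adjusted p = 0.0101) with pairing and 1.66 (SE 0.41, adjusted p = 0.0701) without, so that in edgeR with all libraries it passed only with the pairing. DESeq2 called it without pairing (1.65, adjusted p = 0.00302), as did edgeR when adult LPS replicate 1 (adjusted p = 0.0359) or 2 (adjusted p = 0.0177) was left out. The adult change was 0.50 (SE 0.29, adjusted p = 0.463, paired), with pairs at 1.14, -0.22 and 0.53. It was 0.83 (SE 0.31, adjusted p = 0.309) without adult replicate 2, and 0.16 (SE 0.32, adjusted p = 0.920) without adult replicate 1.

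The start of Zfp36 is shown as a single case and does not stand for the other members that responded. The 250 bases before the RefSeq start (chr7:28379229-28379478, minus strand, GRCm38.p6) held 1 CArG box, the site of serum response factor, whose first base lay 58 bases before the start, and 1 STAT motif TTCNNNGAA, 17 bases before it. Both are in capitals and do not overlap.
Zfp36 promoter: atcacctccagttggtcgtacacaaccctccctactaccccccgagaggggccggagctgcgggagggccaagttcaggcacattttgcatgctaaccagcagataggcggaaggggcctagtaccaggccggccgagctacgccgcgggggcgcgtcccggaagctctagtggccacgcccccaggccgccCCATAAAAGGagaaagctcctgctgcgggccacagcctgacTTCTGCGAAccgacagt
Of 32851 mouse promoters (250 bases before to 50 after the start, both strands searched), 1.63% held a CArG box and 8.30% the STAT motif, while 8.46% held the NF-κB consensus, 7.81% the AP-1 motif TGANTCA and 1.79% the CRE motif TGACGTCA. The promoter windows given for 6 members, Zfp36l2 not among them, held no CRE motif. They held 1 NF-κB match, in 1 of the 2 windows of Zc3h12c, and 1 AP-1 match each in Zfp36l1 and Rc3h1. The CArG box and the STAT motif were found in Zfp36 alone. Zc3h12a, which rose most, had no match to any of these motifs, and neither had Elavl1. A match is only the presence of these letters.

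Zfp36l1 (chromosome 12, 80107760 to 80113013), a close relative that also drives AU-rich decay, rose more evenly. It was at 48.2, 29.2 and 75.8 CPM with PBS and at 98.4, 76.6 and 125 CPM with LPS in embryonic cultures, and at 37.1, 49.0 and 33.5 CPM with PBS and 72.7, 67.3 and 61.6 CPM with LPS in adult stroma. All LPS libraries were above all PBS libraries of their stage, though the embryonic ranges came within 1 CPM of each other. Paired, it rose by 1.04 on the log2 scale in embryonic stroma (SE 0.14, adjusted p = 0.00246) and by 0.77 in adult stroma (SE 0.14, adjusted p = 0.0194), in 6 of 6 pairs. Without pairing neither change passed (0.97, adjusted p = 0.181, and 0.75, adjusted p = 0.728). The paired adult call was lost without adult replicate 1 (0.67, adjusted p = 0.163) or 3 (0.70, adjusted p = 0.150).

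Zfp36l2 (chromosome 17, 84183924 to 84187947), the remaining member of that family, did not follow the other two. With PBS it was at 22.8, 40.4 and 46.0 CPM in embryonic and at 51.3, 47.0 and 68.0 CPM in adult stroma. With LPS it was at 23.8, 48.6 and 23.7 CPM in embryonic and at 51.0, 43.9 and 49.5 CPM in adult stroma. The LPS and PBS ranges overlapped at both stages. The paired log2 fold change was -0.20 (SE 0.22, adjusted p = 0.618) in embryonic and -0.19 (SE 0.21, adjusted p = 0.742) in adult stroma, with 95% intervals from 0.614- to 1.23-fold and from 0.626- to 1.23-fold. Embryonic replicate 3 was the only embryonic pair below 0 (-0.96), with the other 2 pairs at 0.06 and 0.27.

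Rc3h1 (chromosome 1, 160906411 to 160974976), the gene of Roquin-1, was at 65.7, 43.2 and 50.8 CPM with PBS and 62.2, 50.8 and 68.1 CPM with LPS in embryonic cultures, and at 51.9, 44.3 and 42.8 CPM and 49.9, 49.9 and 51.3 CPM in adult stroma. The ranges overlapped at both stages. Its paired change was 0.19 (SE 0.11, adjusted p = 0.302) and 0.12 (SE 0.11), which allows at most a 1.36-fold rise in embryonic and a 1.30-fold rise in adult stroma at the upper 95% bound.

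Elavl1 (chromosome 8, 4284781 to 4325140), the gene of HuR, was the steadiest member. It was at 65.2, 62.8 and 54.2 CPM with PBS and 71.7, 67.6 and 62.5 CPM with LPS in embryonic cultures, and at 54.5, 56.1 and 52.4 CPM and 58.7, 61.8 and 57.0 CPM in adult stroma. Each of the 6 pairs was higher with LPS, by 0.10 to 0.21 on the log2 scale, and the adult groups did not overlap. The paired change was 0.15 (SE 0.06, adjusted p = 0.168) and 0.12 (SE 0.06, adjusted p = 0.367), and neither passed. The upper 95% bounds were 1.22- and 1.20-fold.

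**Figure D2:**
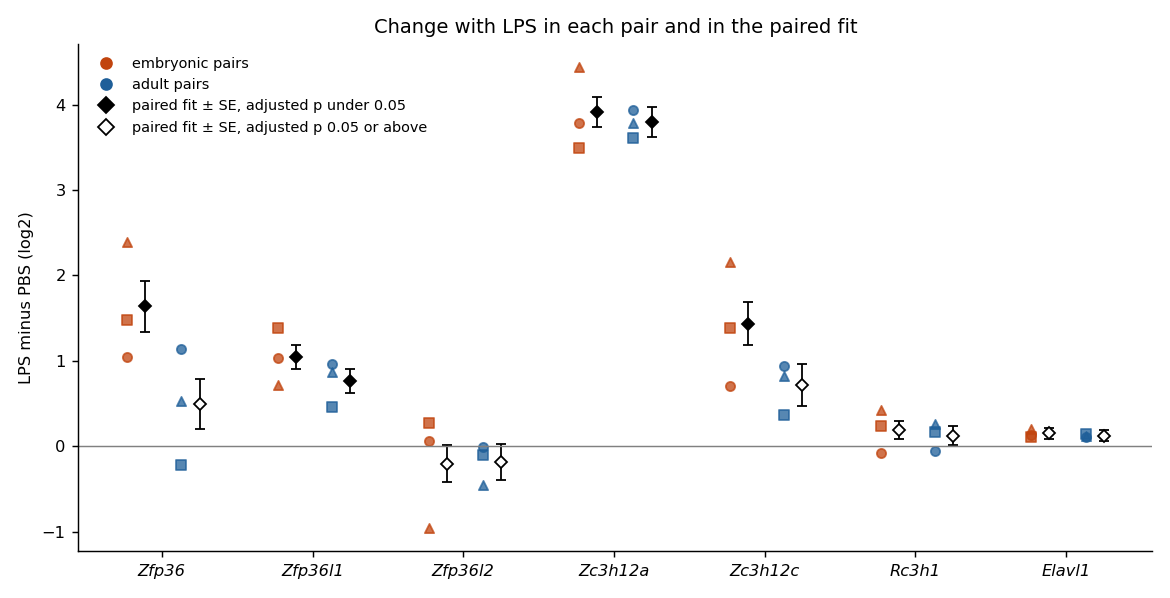
LPS minus PBS (log2) in each of the 3 pairs per stage (coloured symbols, by replicate number) and in the paired edgeR fit (diamonds ± SE, filled where the adjusted p was under 0.05). Zc3h12a stood near 4 at both stages, the fitted values of Zfp36l2, Rc3h1 and Elavl1 lay between -0.20 and 0.19 although Zfp36l2 was at -0.96 in embryonic replicate 3, and adult replicate 2 was the lowest adult pair for Zfp36, Zfp36l1, Zc3h12a and Zc3h12c.

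Whether the stages differed was asked in 3 ways. For the interaction of stage and LPS, 0 of 7 members passed in either edgeR fit or in DESeq2, where 0% of all genes passed without pairing and 0.844% with it. At an unadjusted p under 0.05 there were 0 members without pairing and 1 with it, Zfp36, whose embryonic change exceeded the adult change by 1.14 (SE 0.41, adjusted p = 0.457, 95% interval 1.13- to 4.28-fold). Between embryonic and adult PBS libraries 0 of 7 passed (0 at an unadjusted p under 0.05, and 0 in DESeq2), where 4.08% of genes did. Between the LPS libraries 0 of 7 passed as well (0 at an unadjusted p under 0.05, and 0 in DESeq2), where 5.31% did.

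Some members had stage ranges that did not overlap, though none passed the test. With PBS 2 of 7 were lower in every embryonic library, as were 11.9% of all tested genes, and with LPS 2 of 7 were higher, as were 13.4%, so nothing particular to the members is read from these. Zfp36l2 with PBS was lower in all 3 embryonic libraries than in any adult one (log2 difference -0.61, SE 0.32, adjusted p = 0.333), and so was Zc3h12c. With LPS, Zfp36l1 and Elavl1 were higher in all embryonic than in all adult libraries. For Zfp36l1 that difference was 0.57 (SE 0.31), with a 95% interval from 0.929- to 2.38-fold.

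Per kilobase of exon, a scale meant for comparing genes, the order of the members changed with LPS. The exon length used for Zfp36 (3470 bases) was longer than its whole RefSeq span (28376784 to 28379228). Its values per kb may therefore be too low, and its place among the highest members is not settled. In embryonic PBS libraries Zfp36l1 (17.1 ± 7.85 CPM per kb, SD, n = 3), Zfp36 (12.6 ± 2.45), Elavl1 (10.5 ± 1.00) and Zfp36l2 (10.3 ± 3.43) overlapped each neighbour in the order, and stood above Rc3h1, Zc3h12a (2.91 ± 0.649) and Zc3h12c, none of which overlapped the next. With LPS, Zc3h12a (44.1 ± 10.3), Zfp36 (39.7 ± 11.1) and Zfp36l1 (33.4 ± 8.08) were highest, and their neighbouring ranges overlapped. In adult PBS libraries Zfp36l2 (15.7 ± 3.15), Zfp36 (14.1 ± 2.76) and Zfp36l1 (13.3 ± 2.70) led with overlapping ranges, and Zc3h12a (4.42 ± 1.77) overlapped Rc3h1 (4.21 ± 0.444). With LPS, Zc3h12a (63.1 ± 30.8) came first in adult stroma, with its lowest library (31.1 CPM per kb) above the highest of Zfp36l1 (22.5 ± 1.87), the next in order. It still overlapped Zfp36 (22.3 ± 13.3), whose highest adult LPS library reached 36.1 CPM per kb. Zc3h12c was last in all 4 groups, by mean.

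**Figure D3:**
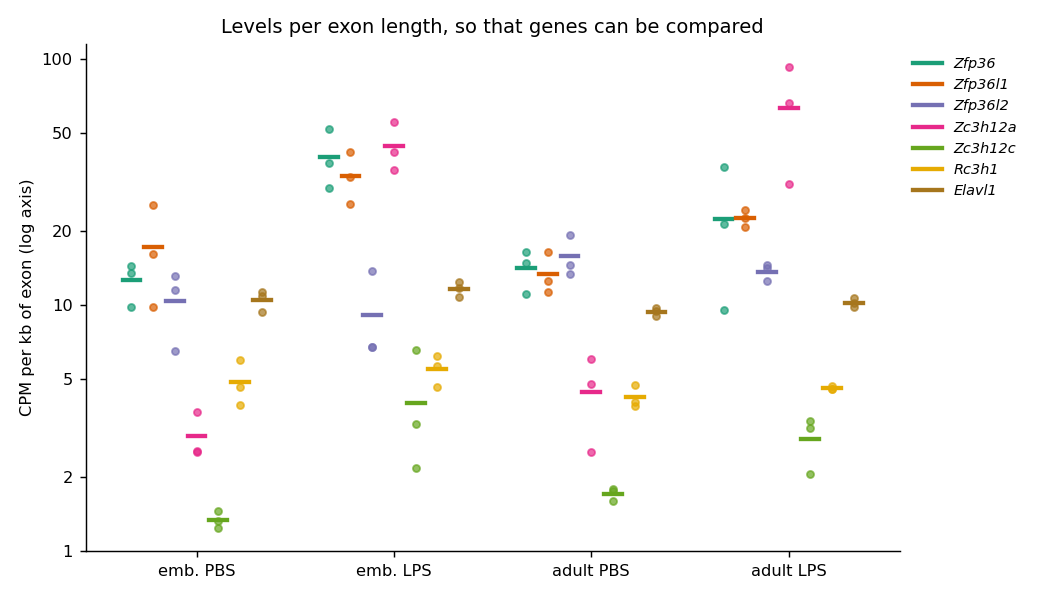
Level of each decay factor per kilobase of exon (CPM per kb, log axis) in the 4 groups, with a point for each library and a bar for the mean (n = 3). Zc3h12a moved from 2.91 to 44.1 CPM per kb in embryonic and from 4.42 to 63.1 in adult stroma, to the highest mean of the 7 in both. This order holds for the exon lengths used, of which that of Zfp36 exceeded its RefSeq span, so that its values may be too low.

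Within the families the balance between members shifted. Zfp36, Zfp36l1 and Zfp36l2 together reached 40.0 ± 7.22 CPM per kb with PBS and 82.2 ± 16.0 with LPS in embryonic stroma, and 43.1 ± 2.30 and 58.4 ± 15.4 in adult stroma. The share of Zfp36l2 in that sum went from 25.8% ± 7.83 to 11.4% ± 5.76 in embryonic stroma and from 36.3% ± 5.47 to 24.1% ± 4.45 in adult stroma (SD, n = 3). Of the summed Zc3h12a and Zc3h12c level, Zc3h12a held 68.0% ± 5.92 with PBS and 92.1% ± 2.43 with LPS in embryonic stroma, and 70.5% ± 8.32 and 95.2% ± 1.35 in adult stroma. These shares follow from the levels above and were not tested. The sums and shares of the Zfp36 family also depend on the exon length taken for Zfp36.

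In embryonic stroma 3 of the 7 members, Zfp36, Zc3h12a and Zc3h12c, ranked the 3 LPS libraries in the order of their summed macrophage markers (218, 1170 and 2396 CPM). Zfp36l1, Zfp36l2 and Rc3h1 did not, and Elavl1 ran in the reverse order. The share of all tested genes that rank 3 libraries in this way was not counted, so no link to macrophages is read from it. With PBS, replicate 3, with 3222 CPM of markers, had the lowest Zfp36 (34.0 CPM), a Zc3h12a level beside that of replicate 1 (6.97 and 7.02 CPM) and the highest Zc3h12c (9.93 CPM). In adult stroma the same 3 members, and Zfp36l2, ranked the LPS libraries in the order of their summed macrophage markers (225, 54.8 and 66.3 CPM in replicates 1 to 3). With PBS (214, 65.6 and 70.5 CPM), Zfp36 and Zc3h12a followed that order and Zc3h12c and Zfp36l2 did not. Between the stages, Zc3h12a was at 255, 85.5 and 181 CPM in adult LPS replicates 1 to 3 and at 97.4, 115 and 153 CPM in the embryonic ones. With pairing, 4 of the 17 macrophage markers rose and 1 fell with LPS in embryonic stroma, and 0 passed in adult stroma. Without embryonic replicate 3 the paired embryonic changes were 1.23 for Zfp36 (SE 0.26, adjusted p = 0.0253), 1.18 for Zfp36l1 (SE 0.13, adjusted p = 0.00116), 3.61 for Zc3h12a (SE 0.12, adjusted p = 9.67e-07) and 1.03 for Zc3h12c (SE 0.19, adjusted p = 0.0136), and the 4 still passed. With all pairs they were 1.64, 1.04, 3.91 and 1.44 in the same order. Replicate 2, with 519 and 1170 CPM of macrophage markers, stayed in that fit, which therefore cannot separate the part of macrophages. Of the 3 adult LPS libraries, replicate 2 had the most endothelial and the least macrophage marker RNA, and the least Zfp36, Zc3h12a and Zc3h12c. Mertk was the exception among the macrophage markers, at 37.0 CPM in that library against 4.82 and 12.9 CPM in adult LPS replicates 1 and 3. The part of these other cells in the members' levels was not tested.

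**Figure D4:**
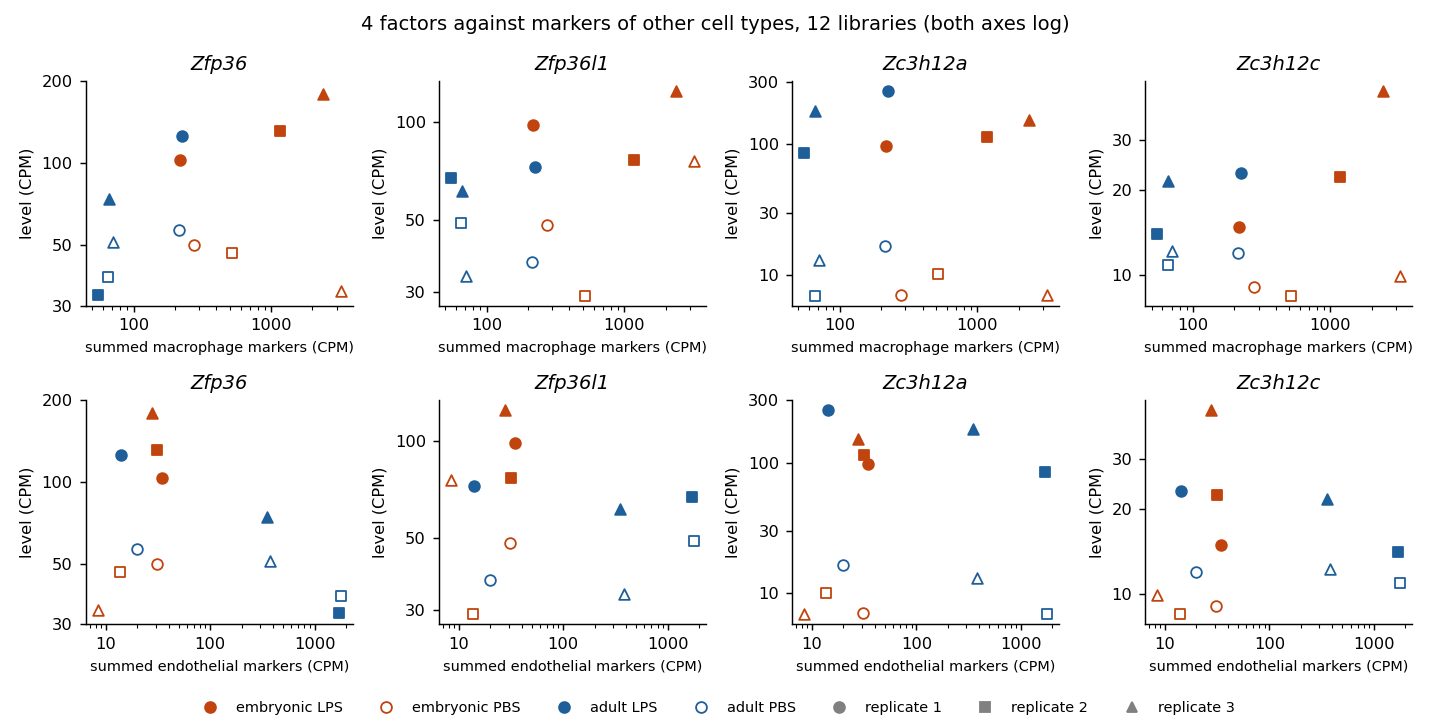
Level of 4 decay factors (CPM, log axis) against the summed markers of macrophages (17 genes, upper panels) and of endothelium (6 genes, lower panels) in CPM on a log axis, with a point for each of the 12 libraries. LPS libraries (filled) lay above PBS libraries (open) for Zc3h12a from 54.8 to 2396 CPM of macrophage markers, and adult replicate 2 (blue squares) stood apart at 1720 and 1791 CPM of endothelial markers. The lowest macrophage sums, in adult replicate 2, were mostly Mertk.

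The effector enzymes that the members call on are given by class, beside the share of all tested genes that rose with pairing (9.43% in embryonic and 4.69% in adult stroma). Of 17 genes of the CCR4-NOT and PAN deadenylases and their Tob and Btg adaptors, 0 passed at either stage without pairing (edgeR, 1 at an unadjusted p under 0.05 in embryonic and 0 in adult stroma). With pairing, Btg2 (0.74, SE 0.15, adjusted p = 0.0164) and Btg1 (0.65, SE 0.17, adjusted p = 0.0450), antiproliferative adaptors of the deadenylase, rose in embryonic stroma and Btg2 in adult stroma (0.83, SE 0.15, adjusted p = 0.0184). Both are adaptors and not subunits of the enzyme, and the counts of 2 and 1 of 17 lie near those shares. The median of the list was -0.02 in embryonic and 0.02 in adult stroma with pairing, where that of all tested genes was 0.0013 and -0.0089. The interaction of stage and LPS passed for 0 of the 17 in either edgeR fit.

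Of 19 genes of decapping and exonucleolytic decay, Dcp2, the catalytic subunit of the decapping enzyme, rose in embryonic stroma in both fits. It was at 40.1, 33.9 and 44.4 CPM with PBS and at 121, 86.1 and 262 CPM with LPS, with no overlap and with replicate 3 highest. Its log2 fold change was 1.83 (SE 0.20, adjusted p = 0.000929) with pairing and 1.99 (SE 0.33, adjusted p = 0.0116) without. The adult cultures held 34.0, 33.5 and 37.3 CPM with PBS and 57.5, 57.2 and 65.9 CPM with LPS (0.78, SE 0.20, adjusted p = 0.0667, paired). With pairing the 5′ exonuclease Xrn1 rose (0.86, SE 0.18, adjusted p = 0.0181) and the exosome subunit Exosc8 fell by 0.41 (SE 0.10, adjusted p = 0.0413) in embryonic stroma, and 0 of 19 passed in adult stroma (2 at an unadjusted p under 0.05). The paired embryonic counts, 2 of 19 that rose and 1 that fell, lie near the 9.43% and 3.12% of all tested genes. No difference between the stages was shown, since the paired interaction did not pass for Dcp2 (1.05, SE 0.28, adjusted p = 0.258), Xrn1 (0.77, SE 0.25, adjusted p = 0.381) or Exosc8 (-0.41, SE 0.15, adjusted p = 0.440).

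Among 16 other RNA-binding proteins, of which 12 were tested, N4bp1 and Arid5a rose in embryonic stroma in both fits and 0 passed in adult stroma (1 at an unadjusted p under 0.05 without pairing, 2 with it). N4bp1 encodes a regnase-like endoribonuclease that restrains cytokine production. It was at 57.5, 42.0 and 49.6 CPM with PBS and at 106, 87.5 and 187 CPM with LPS in embryonic stroma (1.29, SE 0.19, adjusted p = 0.00375, paired), and at 49.2, 47.6 and 40.7 CPM and 49.3, 63.4 and 53.8 CPM in adult stroma. Arid5a, which is known to stabilise Il6 mRNA and so to oppose Regnase-1, had a paired log2 fold change of 1.82 (SE 0.27, adjusted p = 0.00410) in embryonic and 0.86 (SE 0.27, adjusted p = 0.127) in adult stroma. The interaction passed for neither (N4bp1 1.01, SE 0.26, adjusted p = 0.231, and Arid5a 0.95, SE 0.38, adjusted p = 0.503, paired).

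Among 10 enzymes that act on the members, Malt1, the paracaspase that cleaves regnases and roquins, rose most. It was at 5.61, 6.01 and 9.36 CPM with PBS and at 25.1, 48.7 and 167 CPM with LPS in embryonic cultures, and at 7.07, 8.82 and 8.35 CPM and 51.0, 15.9 and 36.0 CPM in adult stroma. No LPS library overlapped the PBS libraries of its stage. Its paired change was 3.15 (SE 0.45, adjusted p = 0.00318) in embryonic and 1.96 (SE 0.44, adjusted p = 0.0390) in adult stroma. Ikbkb, a kinase that marks Regnase-1 for degradation, rose in embryonic stroma (0.67, SE 0.13, adjusted p = 0.0151, paired). Mapkapk3, a kinase related to the one that inactivates tristetraprolin, rose at both stages (0.37, adjusted p = 0.0367, and 0.49, adjusted p = 0.0216). The gene of that kinase itself, Mapkapk2, did not pass in embryonic (0.59, SE 0.19, adjusted p = 0.0845, paired) or adult stroma (0.61, SE 0.19, adjusted p = 0.117). Mapk14, which encodes p38α at the head of that kinase cascade, fell by 0.38 in embryonic stroma (SE 0.10, adjusted p = 0.0388). Dusp1, a phosphatase that switches p38 off, fell by 0.70 in adult stroma (SE 0.13, adjusted p = 0.0196), with the embryonic change at -0.46 (adjusted p = 0.0585). Without pairing Malt1 alone passed, in embryonic stroma (3.52, SE 0.67, adjusted p = 0.0209). The interaction of stage and LPS passed for 0 of the 10 in either edgeR fit.

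Of 21 inflammatory transcripts known as targets of these factors, 20 were tested and Il10 was not. Without pairing 13 rose in embryonic and 8 in adult stroma, and with pairing 17 at each stage, with 0 that fell. Ptgs2, Pde4b and Vegfa did not pass at either stage. The median paired log2 fold change was 6.73 in embryonic and 5.42 in adult stroma. With genes whose PBS libraries held at most 3 reads set at their lower bound (1 gene in embryonic and 5 in adult stroma), the medians without pairing were 6.76 and 5.38. The neutrophil chemokine Cxcl1 was at 0.181, 0.122 and 0.0897 CPM with PBS and 478, 200 and 523 CPM with LPS in embryonic cultures, and at 0.806, 0.482 and 0.852 CPM and 1111, 729 and 722 CPM in adult stroma. Csf2, a myeloid growth factor, had 0 reads in the embryonic PBS libraries, and its mean LPS level was at least 131-fold higher in embryonic stroma and, for the adult cultures, at least 272-fold, against a floor of 3 reads per PBS library. Il12b, a subunit of interleukins IL-12 and IL-23, was at 312, 204 and 2552 CPM in the embryonic and at 10.2, 2.61 and 7.52 CPM in the adult LPS libraries. Tnf, named here after its values were seen because its UTR is shown above, was at 240, 1037 and 3151 CPM in embryonic and at 65.6, 9.47 and 27.4 CPM in adult LPS libraries. The summed macrophage markers ranked the embryonic LPS libraries in the same order as Tnf (218, 1170 and 2396 CPM) and were at 54.8 to 225 CPM in the adult LPS libraries, and their part in the levels of Tnf and Il12b was not tested. The stage ranges of Tnf did not overlap, whereas those of Zc3h12a did (97.4 to 153 and 85.5 to 255 CPM), and the interaction passed for 0 of these 20 transcripts in either fit (edgeR, 1 at an unadjusted p under 0.05 without pairing and 5 with it).

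**Figure D5:**
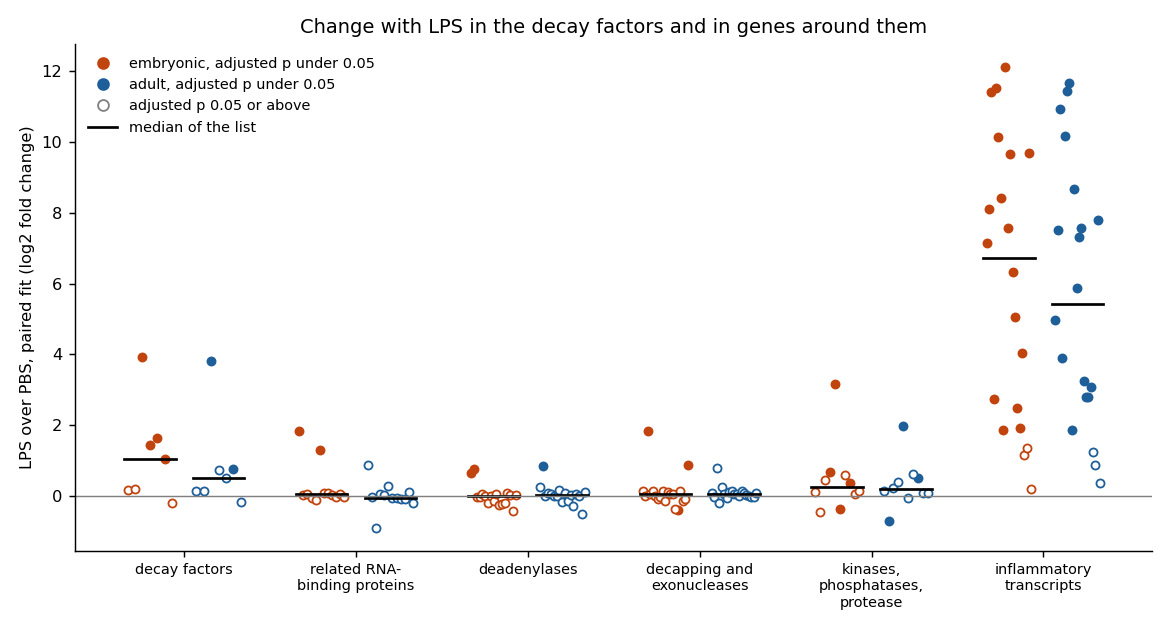
Fitted log2 fold change of LPS over PBS in the paired edgeR fit (vertical axis) for the 7 decay factors and for 5 lists of related genes, in embryonic (orange) and adult (blue) stroma, with filled points for an adjusted p under 0.05 and a black bar for each list's median. The medians of the deadenylase and decapping lists lay near 0 and that of the inflammatory transcripts at 6.73 and 5.42, where values of genes with few PBS reads depend on the prior count.

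Over the 12 libraries, which share their cultures and treatment, the members differed in the genes whose log2 CPM ran most like theirs. Zc3h12a ran most like Ell2, an elongation factor (r = 0.992), and Relb, an NF-κB subunit (r = 0.988). For Zc3h12c the nearest were Malt1 (r = 0.978) and Myd88, the adaptor of Toll-like receptors (r = 0.961). For Zfp36 they were Cish, a cytokine-induced inhibitor of JAK-STAT signaling (r = 0.950), and Cyth2 (r = 0.933), and for Zfp36l1 Rcsd1 (r = 0.946) and Zfp456 (r = 0.946). The 3 members that did not pass with LPS ran like other genes: Zfp36l2 like Snapin (r = 0.941) and Zfp938 (r = 0.936), Rc3h1 like Fam53c (r = 0.956) and BC024479 (r = 0.939), and Elavl1 like Amotl1 (r = 0.926) and Crmp1 (r = 0.915). Among the members themselves, Zfp36 and Zc3h12c were most alike (r = 0.845), and Zfp36l2 and Rc3h1 ran most nearly opposite (r = -0.862). These values describe the libraries and carry no test.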

How the data were processed

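The 12 poly(A) libraries were analysed. The authors trimmed the reads, aligned them with STAR to mm10 and deposited raw counts per gene, unstranded and by strand. The fourth column was used, since the opposite strand held 1.14% to 1.98% of the gene reads of both strands. Entries naming no gene (17.4% to 19.9% of reads) were left out.

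Counts were scaled by TMM and fitted in R 4.3.3 with edgeR 4.0.16 (glmQLFit, glmQLFTest) in 1 model of 4 groups, with DESeq2 1.42.0 as an alternative. Genes above 0.5 CPM in all libraries of at least 1 group were kept, and log2 CPM used a prior count of 2. A paired fit used the number of each culture, nested in its stage, as a blocking term. Nothing in the labels ties equal numbers to 1 culture, so this pairing rests on the correlations given, all above 0.1. Standard errors were derived from the fold change and F. Both fits were tested on simulated data.

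Members and lists were chosen with earlier results of these data known. Named were all 7 members, up to 3 genes per list that passed in either fit by largest embryonic change, exceptions, and the 2 genes most correlated with each member. List genes were matched by symbol, 4 through synonyms. Sequences came from GENCODE M21 and RefSeq (GRCm38.p6). Figures used Python 3.11.15 and matplotlib 3.10.9.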

Additional observations from a re-analysis of the deposited data

How the results depend on the processing

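The number of members that passed in embryonic stroma (2) became 1 with no filter on low counts, with the 6 embryonic libraries alone, at an adjusted p under 0.01, or with an added log2 fold change of at least 2, and 1 to 3 with a library left out. It became 4 with the replicate block within a stage, and stayed 4 under that block without any 1 pair. In adult stroma the count (1) became 2 with the replicate block, 1 to 3 with the block and a pair left out, and 0 to 1 with a library left out. The call lost under no filter and in the embryonic libraries alone was Zc3h12c (adjusted p = 0.0542 and 0.292), and the cause was not tested. With the replicate block, passed genes in embryonic stroma went from 0 to 2 for deadenylases, from 1 to 3 for decapping and from 1 to 4 for the enzymes acting on the members. In adult stroma they went from 0 to 1 for deadenylases, from 0 to 3 for those enzymes and from 8 to 17 for targets. RLE size factors changed no member's call, and DESeq2 changed that of Zfp36 in embryonic stroma alone.

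No value that passed changed its sign. The interaction of Zfp36l2 turned from 0.019 to -0.0108 with no filter and to -0.0160 with the replicate block. Leaving out a library gave interactions of -0.41 to 0.22 for Zfp36l2, -0.24 to 0.47 for Zc3h12a, -0.0519 to 0.0598 for Elavl1, -0.0634 to 0.23 for Rc3h1 and -0.0599 to 0.62 for Zfp36l1. With the replicate block and a pair left out they were -0.26 to 0.33 for Zfp36l2 (-0.146 without embryonic replicate 1 and -0.172 without adult replicate 3), -0.18 to 0.33 for Zc3h12a, -0.0263 to 0.05 for Elavl1, -0.0715 to 0.21 for Rc3h1 (-0.0224 without adult replicate 1) and 0.11 to 0.42 for Zfp36l1. The embryonic change of Zfp36l2 ranged from -0.62 to 0.0203 with a library left out and from -0.45 to 0.14 with a pair left out, the stage difference with LPS of Zc3h12c from -0.10 to 0.78, and that with PBS of Zfp36l1 from -0.0446 to 0.63. Equal numbers across stages did not deviate together (correlation -0.31 to -0.002), and a replicate block across stages changed no stage call, with 0 members passed. The biological coefficient of variation was 0.340 without and 0.126 with the block. With at least 144 reads per member and library, the spread between 3 cultures limited these values more than depth did.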
